A study of Rattus norvegicus with 24 samples.

Results

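The genes examined were 6 ligands of the bone morphogenetic protein (BMP) family in rat growth cartilage: Bmp2, Bmp3, Bmp4, Bmp6, Bmp7 and Gdf10. They were taken as every probe set that the array's annotation gives to these symbols, which found all 6 genes among 14217 with a single symbol, on 10 of 31042 probe sets. A probe set is a group of short probes read together, and its value is a MAS5 signal on a linear scale. RNA came from proximal tibial cartilage of 1-week-old rats that were not castrated and had no treatment, dissected by hand from 60 µm frozen sections. There were 24 arrays from 5 numbered animals: 5 of each of the resting, proliferative, proliferative-hypertrophic transition and hypertrophic zones, and 4 of epiphyseal cartilage, where none came from animal 3. The genes lie at chr3:141264648-141275416 (Bmp2), chr14:11012564-11041282 (Bmp3), chr15:22098191-22113145 (Bmp4), chr17:26523704-26785558 (Bmp6), chr3:182059318-182135273 (Bmp7) and chr16:9243434-9256788 (Gdf10) in the RefSeq table of rat build GRCr8. The labels name male rats for the resting, proliferative and hypertrophic arrays, and give no sex for the epiphyseal and transition arrays. Each array holds a hand-cut piece of tissue, so a lower signal from fewer expressing cells and one from less RNA per cell cannot be told apart.

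BMPs are secreted dimers of the transforming growth factor beta superfamily. They bind type I and type II receptor kinases, which phosphorylate Smad1, Smad5 and Smad9, and these enter the nucleus with Smad4 and turn on genes such as the Id family. Bmp2 and Bmp4 form a closely related pair, Bmp6 and Bmp7 belong to another subgroup, and Bmp3 and Gdf10 (also called Bmp3b) are related to each other, of which Bmp3 is known to oppose the signal of other BMPs. In the growth plate, resting cells supply the columns of dividing cells, which then leave the cell cycle, enlarge and mineralize their matrix, and BMP signalling is known to promote both division and enlargement.

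The median signal of an array ranged from 135.3 to 244.6, and precision is limited by how many arrays each zone has. All 5 tested chondrocyte markers lay above the array median in every array. The summed signal of 7 markers of hypertrophic chondrocytes, Col10a1 and Ihh among them, was 87610 to 199737 in the hypertrophic arrays, 41352 to 80762 in the transition arrays and 3516 to 8576 in the proliferative arrays. The hypertrophic array of animal 4 stood apart. Its summed signal of 3 osteoblast markers was 102171 against 23033 to 37839 in the other 4 hypertrophic arrays, that of 5 osteoclast and macrophage markers 73408 against 5134 to 10391, and that of 7 perichondrium and fibroblast markers 43693 against 2798 to 6171. The called differences of the hypertrophic zone are also given without it. In epiphyseal cartilage the arrays of animals 1 and 2 stood apart from those of animals 4 and 5. Their osteoclast and macrophage sums were 58517 and 29172 against 2961 and 2155, and their sums of 5 endothelial markers 5448 and 3991 against 504.5 and 427.2.

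Promoter entries from RefSeq (build GRCr8) matched Bmp3, Bmp4, Bmp6 and Gdf10. The 250 bases before the listed start are shown for Bmp3, Gdf10 and Bmp6, since these genes had their highest signal in 3 different zones. They lie at chr14:11041283-11041532 on the minus strand (Bmp3), chr16:9243262-9243511 on the plus strand (Gdf10) and chr17:26675262-26675511 on the minus strand (Bmp6). The listed start of Gdf10 lies just inside the gene's annotated span. That of Bmp6, a gene on the minus strand whose span ends at 26785558, lies far inside its span. The Bmp6 window is therefore not beside the 5′ end of the span. Sequences run 5′ to 3′ towards the start, and capitals mark a match to a GC box or a CCAAT box.
Bmp3: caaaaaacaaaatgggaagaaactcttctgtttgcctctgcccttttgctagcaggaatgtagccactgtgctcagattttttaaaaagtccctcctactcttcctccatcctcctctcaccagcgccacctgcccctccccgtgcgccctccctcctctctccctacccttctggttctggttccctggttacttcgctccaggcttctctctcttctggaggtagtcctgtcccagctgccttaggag
Gdf10: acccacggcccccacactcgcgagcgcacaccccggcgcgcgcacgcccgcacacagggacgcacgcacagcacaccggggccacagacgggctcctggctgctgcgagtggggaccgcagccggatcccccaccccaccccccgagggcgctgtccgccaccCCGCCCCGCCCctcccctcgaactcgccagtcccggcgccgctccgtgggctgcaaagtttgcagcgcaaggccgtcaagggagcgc
Bmp6: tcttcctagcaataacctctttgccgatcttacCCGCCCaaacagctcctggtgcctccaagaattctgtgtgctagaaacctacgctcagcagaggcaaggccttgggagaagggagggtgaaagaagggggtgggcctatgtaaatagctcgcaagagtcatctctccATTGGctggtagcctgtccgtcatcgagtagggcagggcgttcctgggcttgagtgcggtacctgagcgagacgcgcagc

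The Gdf10 window had a GC content of 76.0% and 31 CpG steps, and 97.1% of 33469 rat promoter windows of the same length had a lower GC content. The Bmp3 window had a GC content of 53.6% and 4 CpG steps, so the promoters of these related genes differed in base composition. The Bmp6 window had 56.4% and 11 CpG steps. Both strands were searched for 9 motifs, given with the share of all windows that hold each: a RUNX motif (TGTGGT, 14.5%), a SMAD palindrome (GTCTAGAC, 0.173%), a GC box (GGGCGG, 30.5%), a CCAAT box (34.0%), a TATA box (TATAAA, 12.9%), an E-box (CACGTG, 5.59%), a CRE (TGACGTCA, 1.59%), a FOX motif (TGTTTAC, 3.21%) and a GLI motif (GACCACCCA, 0.338%). Gdf10 had a pair of GC boxes on the minus strand that overlap by 1 base, at 87 to 82 and 82 to 77 bases before the start. Bmp6 had a GC box at 217 to 212 bases and a CCAAT box at 80 to 76 bases before the start, both on the strand opposite to the printed one. No match to these letters was found in the Bmp3 window. A letter match does not show binding.

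**Figure D1:**
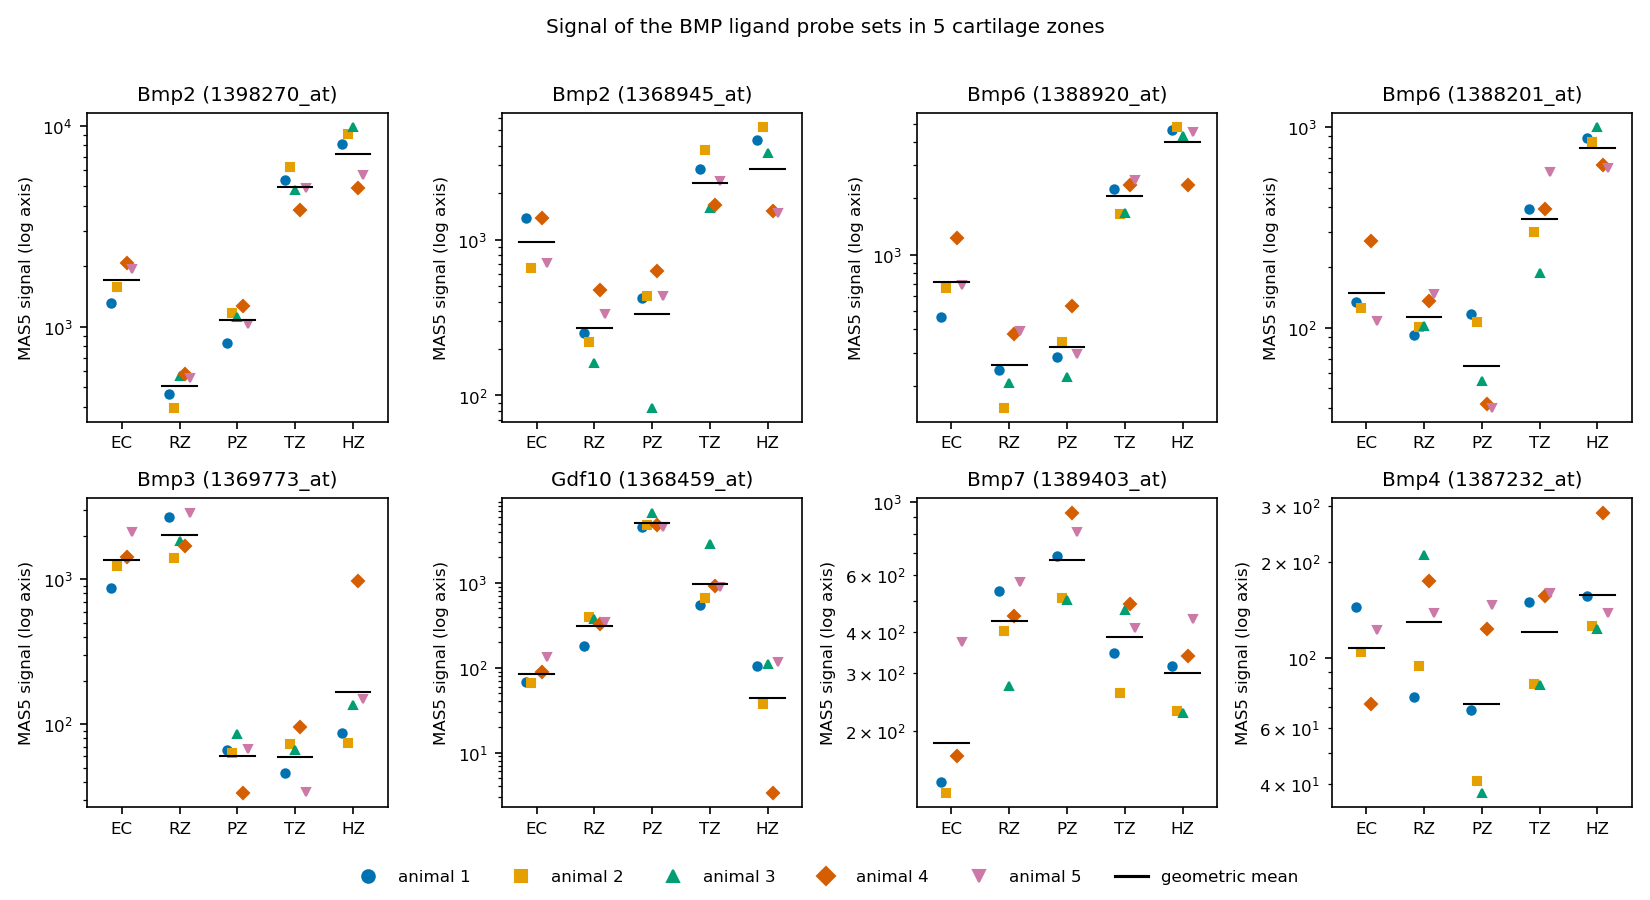
MAS5 signal (log axis) of the 8 tested BMP ligand probe sets in each array, by zone (EC, epiphyseal cartilage, RZ, resting, PZ, proliferative, TZ, transition, HZ, hypertrophic); symbols are animals and bars geometric means. Bmp2 and Bmp6 are highest in the transition and hypertrophic zones, Bmp3 in epiphyseal and resting cartilage, and Gdf10 in the proliferative zone, where its 5 arrays sit between 4494 and 6738.

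Of the 10 probe sets, 8 passed the filter (above the array median in at least 4 arrays) and were tested, and the zones differed by limma's F test for 7 of these, against 55.6% of all 19213 probe sets tested. Every member but Bmp4 had at least 1 probe set that passed, and Bmp2 and Bmp6 count with 2 each. With a filter at the 75th percentile 7495 of 10061 of all probe sets passed, so the share over all probe sets depends on the filter. Zones were then compared in 7 pairs with limma, blocking on the animal, and a call needed both a fold of 2 or more and an adjusted p under 0.05. Differences are given as log2 differences of (signal + 16) with their standard error, and this scale understates the change of dim probe sets. The epiphyseal and transition arrays carry labels worded differently from the rest, so between them and the other zones a difference in sample handling and a difference between zones cannot be told apart. The proliferative, resting and hypertrophic arrays share their wording, as do the transition and epiphyseal arrays. The comparisons share arrays and are not independent of each other.

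Bmp2, a potent inducer of cartilage and bone, was lowest in the resting zone and highest in the hypertrophic zone on both of its probe sets. The brighter one had signals of 463.2, 395.7, 571.8, 579.8 and 556.8 in the resting arrays of animals 1 to 5. In the proliferative arrays of animals 1 to 5 it had 835.6, 1166.3, 1125.1, 1263.7 and 1038.1. All 5 proliferative values lay above all 5 resting values, and the gene rose by 1.06 ± 0.19 (adjusted p = 0.000247, in 5 of 5 animals), a difference that was under 2-fold without animal 2 (0.942) and with a pseudocount of 64 (0.993). Transition arrays held 5366.6, 6191.6, 4763.4, 3818.3 and 4880.7, and hypertrophic arrays 8085.0, 9091.6, 9831.1, 4904.7 and 5649.4. Transition values lay wholly above proliferative values, and the rise was 2.18 ± 0.19 (adjusted p = 8.27e-09). The hypertrophic and transition ranges overlapped, and although the hypertrophic array was the higher in 5 of 5 animals, the difference of 0.55 ± 0.19 (adjusted p = 0.0336) was under 2-fold and not called. In the hypertrophic arrays of animals 4 and 5 the signal was lower than in those of animals 1 to 3.

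The dimmer Bmp2 probe set followed the same order of zones, with means of 288.2 ± 122.5 (SD, n = 5) in the resting, 400.7 ± 196.7 in the proliferative, 2436 ± 878 in the transition and 3240 ± 1693 in the hypertrophic zone. It too was lower in the hypertrophic arrays of animals 4 and 5, at 1530.4 and 1469.1, than in those of animals 1 to 3, at 4329.0, 5261.3 and 3608.9. Between the resting and proliferative zones its ranges overlapped and the difference of 0.32 ± 0.37 (adjusted p = 0.651, 95% confidence interval -0.46 to 1.09) was not called, so the rise of Bmp2 at that step rests on the brighter probe set alone. From the proliferative to the hypertrophic zone Bmp2 rose by 2.73 ± 0.19 on the brighter (adjusted p = 3.4e-11) and 3.01 ± 0.37 on the dimmer probe set (adjusted p = 6.74e-07).

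Epiphyseal cartilage held more Bmp2 signal than the resting zone beside it. On the brighter probe set its 4 arrays gave 1320.8, 1572.2, 2084.8 and 1938.2 in animals 1, 2, 4 and 5, all above the highest resting value of 579.8, and the resting zone was lower by a log2 difference of -1.75 ± 0.20 (adjusted p = 5.54e-06). On the dimmer one the difference was -1.61 ± 0.40 (adjusted p = 0.0278), and that call did not hold without animal 1, 2 or 5 (adjusted p = 0.213, 0.1 and 0.0501). Epiphyseal values were in turn below all transition values on both probe sets. From lowest to highest, the order of zones was resting, proliferative, epiphyseal, transition and hypertrophic, and on the brighter probe set only the ranges of the last pair of neighbours overlapped.

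Bmp6, a ligand known in maturing chondrocytes, was likewise low in the resting and proliferative zones and high in the transition and hypertrophic zones. Its brightest probe set had 283.5, 341.4, 222.0, 533.6 and 294.6 in the proliferative arrays of animals 1 to 5. In the transition arrays it had 2247.4, 1658.2, 1671.2, 2341.2 and 2493.6, and in the hypertrophic arrays 4628.0, 4796.8, 4302.7, 2361.4 and 4492.4. The transition values were all above the proliferative values, and Bmp6 rose by 2.62 ± 0.25 (adjusted p = 4.19e-08, in 5 of 5 animals). From the transition to the hypertrophic zone the difference was 0.95 ± 0.25 (adjusted p = 0.0068), just under 2-fold. Without the hypertrophic array of animal 4, which had the lowest of the 5 values, it was 1.28 (adjusted p = 4.33e-05) and past the fold. In that animal the hypertrophic and transition values were 2361.4 and 2341.2, and in the other 4 the hypertrophic value was clearly the higher.

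A dimmer Bmp6 probe set had means of 72.08 ± 37.14 (SD, n = 5) in the proliferative, 372.4 ± 149.9 in the transition and 799.7 ± 159.9 in the hypertrophic zone. Here hypertrophic values (623.9 to 1000.1) lay wholly above transition values (188.1 to 595.8), and the rise of 1.14 ± 0.32 was called (adjusted p = 0.0107). That call did not hold without animal 2 or 3 (adjusted p = 0.0604 and 0.0959) or when arrays were scaled to one median, where the difference was 0.88 (adjusted p = 0.0526). From the proliferative to the hypertrophic zone the rise was 3.29 ± 0.32 on this probe set (adjusted p = 1.24e-08) and 3.57 ± 0.25 on the brighter (adjusted p = 5.15e-11), both in 5 of 5 animals. All 5 proliferative values of the dimmer probe set were below their array's median. Its rise ran from 2.69 to 3.58 over the other settings. Epiphyseal cartilage exceeded the resting zone on the brightest probe set, with 465.0 to 1228.7 against 152.3 to 389.7, and the resting zone was lower by a log2 difference of -1.35 ± 0.27 (adjusted p = 0.00392). Without animal 2 that call did not hold (adjusted p = 0.0827), and on the dimmer one the ranges overlapped (log2 difference -0.30 ± 0.34, adjusted p = 0.777). Of the remaining Bmp6 probe sets, one was above the array median in 0 of 24 arrays and the other in 2, so neither was tested. Their zone means ran from 22.74 to 43.12 and from 24.5 to 126.4. In a fit without a filter their differences between the transition and proliferative zones were -0.26 ± 0.37 and 0.19 ± 0.55.

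Bmp7, a ligand related to Bmp6, had a different course and was highest in the proliferative zone. Its probe set had 684.0, 509.1, 501.8, 929.9 and 808.4 in the proliferative arrays of animals 1 to 5. In the hypertrophic arrays it had 316.7, 230.5, 227.6, 339.5 and 439.1. All proliferative values were above all hypertrophic values, and the hypertrophic level was lower, with a log2 difference of -1.10 ± 0.21 (adjusted p = 0.000184, in 5 of 5 animals), which was -0.997 and just under 2-fold with a pseudocount of 64. Resting and transition values overlapped, at 273.5 to 568.5 and 262.1 to 490.1. The difference of proliferative from resting cartilage was 0.61 ± 0.21 (adjusted p = 0.0572), and that of transition from proliferative cartilage was -0.76 ± 0.21 (adjusted p = 0.0109), under 2-fold although the ranges did not overlap.

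In epiphyseal cartilage Bmp7 was at its lowest, at 140.0, 128.9, 168.2 and 374.3 in animals 1, 2, 4 and 5. The value of animal 5 lay among the resting values, and the other 3 lay below all of them. Bmp7 was higher in the resting zone by 1.23 ± 0.23 (adjusted p = 0.00193, in 4 of 4 animals), a call that did not hold without animal 1 or 2 (adjusted p = 0.0526 and 0.054) or without both of their epiphyseal arrays (adjusted p = 0.0847). Between the transition zone and epiphyseal cartilage the rise was 1.08 ± 0.23 (adjusted p = 0.000868), which was under 2-fold without animal 3 or 4 (0.938 and 0.954) and without epiphyseal arrays 1 and 2 (0.871). With all arrays, then, Bmp2 was called lower and Bmp7 higher in resting than in epiphyseal cartilage, and Bmp6 was called lower on 1 of its 2 tested probe sets. Without animal 2 the call left was that of the brighter Bmp2 probe set.

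Bmp4 was dim in every zone and passed the filter at its limit, above the median in 4 of 24 arrays. Its zone means ran from 83.36 ± 49.45 (SD, n = 5) in the proliferative to 166.3 ± 68.8 in the hypertrophic zone, and all neighbouring zones overlapped. It did not pass the F test (adjusted p = 0.171) and no comparison in limma called it. The difference of the hypertrophic from the proliferative zone was 0.96 ± 0.35 (adjusted p = 0.0358), under 2-fold, and with a pseudocount of 1 it was 1.12 and called (adjusted p = 0.0351). For the hypertrophic against the resting zone the 95% confidence interval ran from -0.48 to 0.98, so a difference close to 2-fold is within it.

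Bmp3, the member known to oppose other BMPs, marked the opposite end of the growth plate. Its probe set had 2708.0, 1408.4, 1833.5, 1690.7 and 2891.5 in the resting arrays of animals 1 to 5. The proliferative arrays held 66.4, 63.3, 85.8, 33.4 and 67.7. Bmp3 was lower in the proliferative zone in 5 of 5 animals (log2 difference -4.73 ± 0.42, adjusted p = 1.41e-08). All 5 proliferative values were below their array's median, so the size depends on the pseudocount (-5.04 with 1 and -4.05 with 64) and no fold is given. Skeletal muscle markers moved with this step: 4 of 7 were called lower, with summed signals of 10977 to 92883 in resting and 6025 to 18078 in proliferative arrays, and their part in the result was not tested. The Bmp3 signal stayed at this level in the transition zone, with 46.2, 73.3, 66.5, 95.8 and 34.4 (difference from the proliferative zone -0.02 ± 0.42, adjusted p = 0.984, 95% confidence interval -0.88 to 0.84). Epiphyseal arrays held 877.6, 1246.2, 1424.8 and 2134.3 in animals 1, 2, 4 and 5, which overlapped with the resting arrays. The resting value was the higher in 4 of 4 animals, but the difference of 0.58 ± 0.45 was not called (adjusted p = 0.635, 95% confidence interval -0.35 to 1.5).

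In the hypertrophic zone Bmp3 had 86.8, 74.6, 135.2, 969.8 and 150.5 in animals 1 to 5. The value of animal 4 is the one from the array with the high osteoblast, osteoclast and perichondrium markers. With all arrays Bmp3 rose from the transition to the hypertrophic zone by 1.30 ± 0.42 (adjusted p = 0.0262) and from the proliferative to the hypertrophic zone by 1.28 ± 0.42 (adjusted p = 0.018). Without that array the differences were 0.68 (adjusted p = 0.107) and 0.66 (adjusted p = 0.0899), and neither was called. The call between the transition and hypertrophic zones also did not hold without animal 5 (adjusted p = 0.102), without the transition array of animal 5 (adjusted p = 0.0954) or with quantile normalization (adjusted p = 0.0985). Of 4 joint surface and epiphysis markers 3 (Vit, Dcn and Abi3bp) were called lower, like Bmp3, in the proliferative than in the resting zone, and Creb5 did not pass the F test (adjusted p = 0.799). The summed signal of the 4 was 6574 to 7392 in epiphyseal, 5765 to 9206 in resting, 568 to 1021 in proliferative and 584 to 1026 in transition cartilage. In the hypertrophic zone it was 4752 in animal 4 and 1256 to 1718 in the others, and the part of these cells in the result was not tested.

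**Figure D2:**
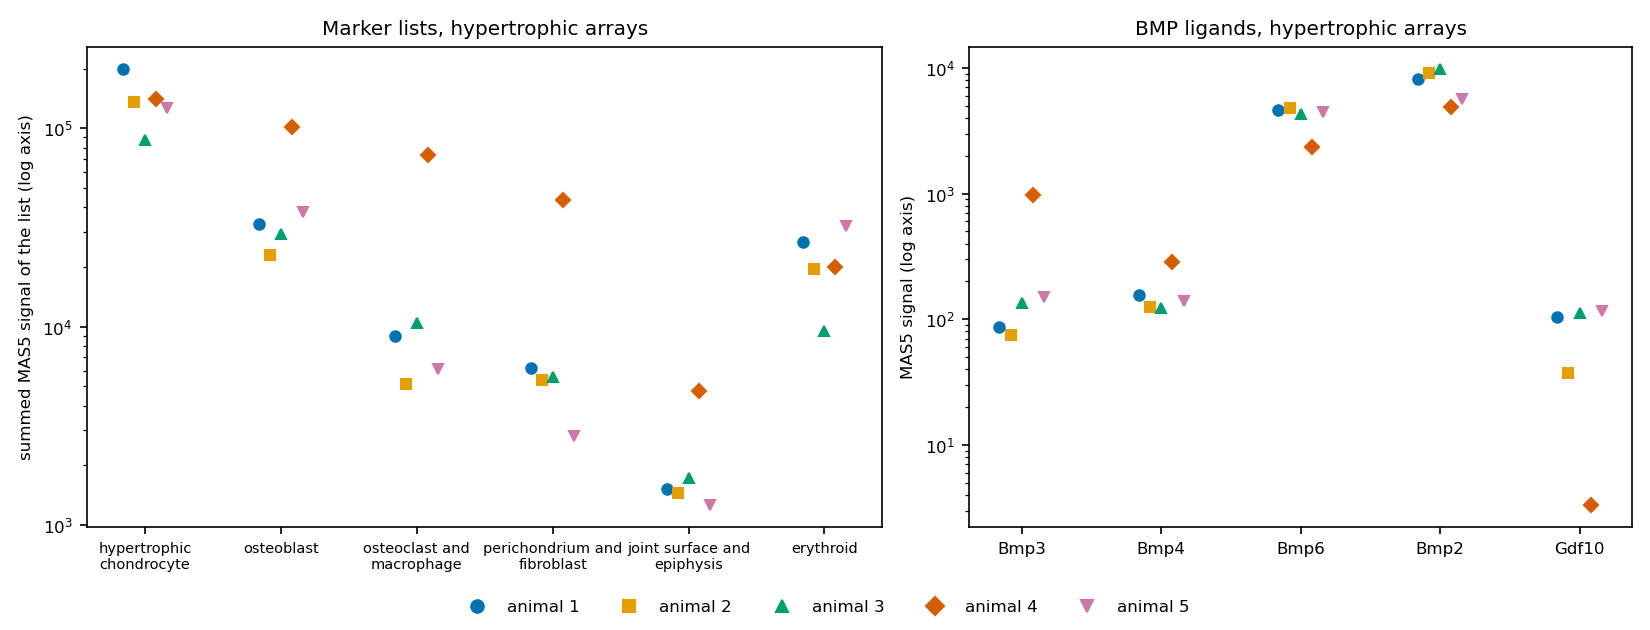
The 5 hypertrophic arrays, with the summed MAS5 signal of 6 marker lists on the left and the signal of 5 BMP ligands on the right (log axes, symbols are animals). The array of animal 4 has the highest osteoblast, osteoclast and macrophage, perichondrium and fibroblast, and joint surface sums, the highest Bmp3 (969.8) and Bmp4 (287.0) and the lowest Bmp6 (2361.4), Bmp2 (4904.7) and Gdf10 (3.3).

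Gdf10, the relative of Bmp3 among the members, peaked in the middle of the growth plate. The epiphyseal arrays held 67.6, 65.4, 88.0 and 132.5 in animals 1, 2, 4 and 5. The resting arrays held 179.0, 396.7, 377.1, 329.7 and 343.0 in animals 1 to 5, and the proliferative arrays 4593.5, 4779.5, 6738.1, 4822.5 and 4494.0. The zones did not overlap, and Gdf10 was 15.3-fold higher in the proliferative than in the resting zone (log2 difference 3.93 ± 0.36, adjusted p = 2.19e-08, in 5 of 5 animals). Among 19213 probe sets this was the second highest difference, and it was so under 18 other settings as well. The rise from epiphyseal to resting cartilage was 1.52 ± 0.39 (adjusted p = 0.0308), and it was not called with a pseudocount of 1 (adjusted p = 0.149) or without animal 1, 2 or 5 (adjusted p = 0.0672, 0.297 and 0.0794).

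Past the proliferative zone Gdf10 fell again. Its transition arrays held 542.9, 653.9, 2887.4, 930.0 and 900.6, with animal 3 the highest, and the fall was -2.35 ± 0.36 (adjusted p = 3.14e-05). In the hypertrophic arrays it had 104.8, 37.2, 111.7, 3.3 and 116.8, which overlapped with the epiphyseal values. From the transition to the hypertrophic zone the difference was -3.75 ± 0.36 (adjusted p = 6.38e-08), and from the proliferative to the hypertrophic zone it was -6.11 ± 0.36 (adjusted p = 2.36e-12), in 5 of 5 animals each. All 5 hypertrophic values were below their array's median, and that of animal 4, 3.3, was under the pseudocount of 16. The size of both differences therefore depends on the pseudocount, and no fold is given; the second was -6.74 with a pseudocount of 1 and -5.30 with 64.

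Without the hypertrophic array of animal 4 the differences of Gdf10 were -3.28 from the transition (adjusted p = 1.85e-08) and -5.64 from the proliferative zone (adjusted p = 1.85e-13), and both were called. Those of Bmp2 from the proliferative zone were 2.89 on the brighter and 3.34 on the dimmer probe set, and those of Bmp6 3.90 on the brightest and 3.40 on the dimmer, all called. From the transition zone the dimmer Bmp6 probe set differed by 1.25 (adjusted p = 0.00978, called) and the brighter Bmp2 probe set by 0.71 (adjusted p = 0.0054, under 2-fold). Bmp7 differed from the proliferative zone by -1.09 (adjusted p = 0.000506, called). Against the resting zone the differences of Bmp2 were 3.95 on the brighter and 3.66 on the dimmer probe set. Those of Bmp6 were 4.2 on the brightest and 2.74 on the dimmer. Bmp3 differed from the resting zone by -4.07 and Gdf10 by -1.7, and all of these were called. Bmp7 was not called there (-0.489, adjusted p = 0.0944). Bmp4 did not pass the filter without this array and has no value there.

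**Figure D3:**
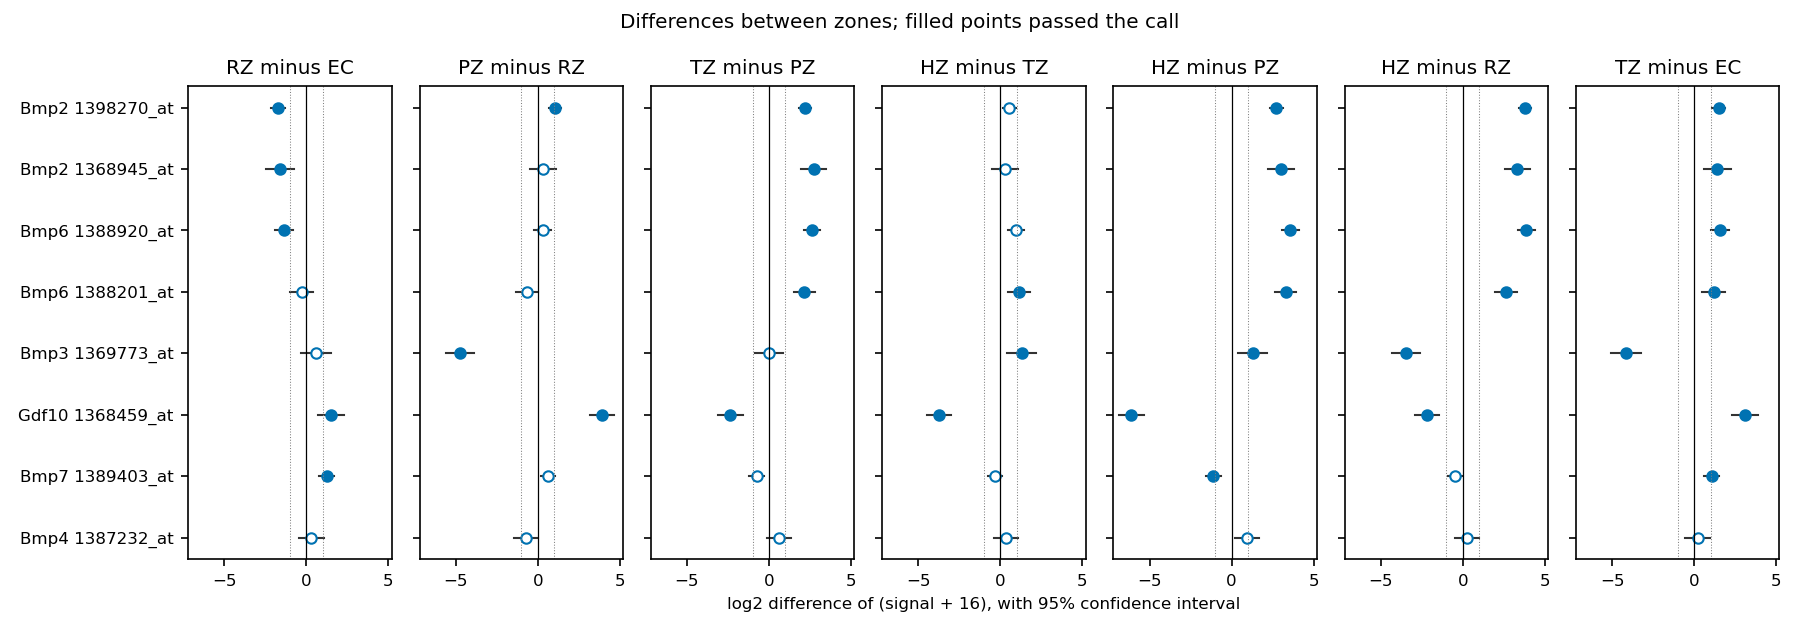
Log2 differences of (signal + 16) between zones for the 8 tested BMP ligand probe sets, with 95% confidence intervals (bars); filled points were called, and dotted lines mark 2-fold. The transition zone minus the proliferative zone shows 4 filled points above 0 for Bmp2 and Bmp6 and 1 below 0 for Gdf10.

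Each comparison called members in both directions. From the proliferative to the transition zone 4 of 8 probe sets rose, all of Bmp2 and Bmp6, and 1 fell, that of Gdf10. Of all probe sets tested 8.43% were called there, 3.11% higher and 5.31% lower. The median log2 difference of the 8 probe sets was 1.38, against -0.06 over all probe sets. Bmp2 and Bmp6 count in it with 2 probe sets each, which went together over the 24 arrays (r = 0.902 and 0.911). The median therefore does not weigh the genes equally and is not read as a rise of the family. The summed signal of 7 markers of dividing cells was 9540 to 15124 in the proliferative and 1559 to 2464 in the transition arrays. From the resting to the proliferative zone 2 rose (Bmp2 and Gdf10) and 1 fell (Bmp3), where 6.09% of all were called, 1.97% higher and 4.12% lower. From epiphyseal to resting cartilage 2 rose (Bmp7 and Gdf10) and 3 fell (Bmp2 on both probe sets and Bmp6 on 1), where 1.51% of all were called, 0.651% higher and 0.859% lower. Leaving out animal 2 left 1 of these 5 calls, animal 1 left 2 and animal 5 left 3, and 2 were left without epiphyseal arrays 1 and 2.

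From the transition to the hypertrophic zone 2 of the 8 rose (Bmp3 and Bmp6) and 1 fell (Gdf10), where 9.27% of all probe sets were called, 6.78% higher and 2.49% lower. With arrays scaled to one median 1 call was made. That scaling moved the median of all probe sets in this comparison from 0.02 to -0.24 and the share of calls that were higher from 73.2% to 43.1%. The share that were higher went from 36.9% to 53.6% in the transition against the proliferative zone, from 32.3% to 42.6% in the proliferative against the resting zone and from 31.4% to 62.6% in the transition zone against epiphyseal cartilage. Quantile normalization gave 60.9% in the hypertrophic against the transition zone and 44.9% in the transition zone against epiphyseal cartilage. In the hypertrophic against the proliferative zone 5 rose (Bmp2 and Bmp6 on both probe sets, and Bmp3) and 2 fell (Bmp7 and Gdf10), where 18.7% of all were called, 9.59% higher and 9.07% lower. In the hypertrophic against the resting zone 4 rose (Bmp2 and Bmp6) and 2 fell (Bmp3 and Gdf10), where 21.1% of all were called, 9.32% higher and 11.8% lower. In the transition zone against epiphyseal cartilage 6 rose (Bmp2 and Bmp6 on both probe sets, Bmp7 and Gdf10) and 1 fell (Bmp3), where 13.8% of all were called, 4.33% higher and 9.46% lower. Without epiphyseal arrays 1 and 2 there were 4 calls in place of 7.

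Other cells and marker lists moved with some of these steps. In the hypertrophic zone all 4 erythroid, all 5 leukocyte, all 5 osteoclast and macrophage and all 3 osteoblast markers tested were called higher than in the transition zone. Their summed signals were 9499 to 32059 against 1006 to 5463, 3289 to 13638 against 676.2 to 2683, 5134 to 73408 against 1019 to 1851, and 23033 to 102171 against 3969 to 10004. Also called higher were 4 of 7 skeletal muscle, 3 of 5 endothelial and 4 of 7 dividing cell markers, with sums of 9088 to 30999 against 3805 to 11533, 710.9 to 2713 against 449.7 to 651.3, and 3591 to 8874 against 1559 to 2464. The part of these cells in the differences of Bmp2, Bmp3 and Bmp6 between these zones was not tested. Epiphyseal arrays had a summed signal of hypertrophic chondrocyte markers of 12991 to 63736, against 3785 to 24848 in resting arrays, and 3 of 7 of these markers (Col10a1, Alpl and Phospho1) were called higher in epiphyseal cartilage. The sums of animals 1 and 2, 63736 and 45920, were the highest of the 4, and the part of these cells in the epiphyseal values of Bmp2 and Bmp6 was not tested.

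The remaining genes of the pathway were taken from 6 lists of 71 genes, of which 57 were on the array with a single symbol and 47 were tested. Of these 47, each read on its brightest tested probe set, 40 differed across zones in the F test. Of all 19213 probe sets tested, dimmer ones included, 55.6% passed it. With a filter at the 75th percentile 7495 of 10061 passed, so the unlike sets limit what this comparison shows. From the proliferative to the hypertrophic zone 11 of the 47 rose and 5 fell, where 9.59% of all probe sets were higher and 9.07% lower. From the proliferative to the transition zone 3 rose and 2 fell, where 3.11% of all probe sets were higher and 5.31% lower. From the resting to the proliferative zone 4 rose and 8 fell, where 1.97% of all were higher and 4.12% lower.

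Among other ligands, 3 of 15 were tested and all 3 passed the F test. Bmp8a was called higher in the hypertrophic (449.9 ± 139, SD, n = 5) than in the proliferative zone (148.0 ± 91.1). Resting cartilage held the lowest mean of Bmp5, at 34.66 ± 36.4, and hypertrophic cartilage the highest of Gdf11, at 434.6 ± 164. The resting values of Bmp5 (4.6 to 96) were all below their array's median. Of the processing enzymes, 5 of 7 were tested and all 5 passed. Pcsk5 and Pcsk6, proprotein convertases of the kind that cut BMP precursors, were lowest in the proliferative zone, at 290.0 ± 30.9 and 1511 ± 150. In the transition zone they had 970.5 ± 161 and 2619 ± 586. Between these zones Pcsk5 was called higher in the transition zone. Pcsk6 was not called (log2 difference 0.76, adjusted p = 0.00197, under 2-fold). Bmp1, a metalloprotease that frees BMPs from chordin and is itself no BMP, was called higher in the hypertrophic (3952 ± 937) than in the transition zone (883.9 ± 215).

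Of 10 receptors and co-receptors, 9 were tested and 8 passed the F test. Acvr1, a type I receptor, had 2061 ± 457 (SD, n = 5) in the hypertrophic and 1024 ± 330 in the proliferative zone. Acvrl1, a type I receptor known from blood vessels, fell from 213.2 ± 77.5 in the resting to 13.78 ± 3.02 in the proliferative zone. The co-receptor gene Rgmb went from 1158 ± 132 in the resting to 299.4 ± 71.8 in the hypertrophic zone, and Rgma from 971.9 ± 197 to 375.3 ± 106, and both were called lower there.

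Antagonists and extracellular modulators numbered 20, of which 12 were tested and 11 passed the F test. From the resting to the proliferative zone 4 of the 12 fell (Chrd, Grem1, Crim1 and Smoc1), where 4.12% of all probe sets were called lower. Grem1, which binds and blocks BMPs, had 1787 ± 566 (SD, n = 5) in the resting and 30.7 ± 34.7 in the proliferative zone, and Chrd, which encodes chordin, 707.7 ± 190 and 236.4 ± 54.9. Bmp3 was called lower in the same comparison. The proliferative values of Grem1 (6.7 to 86.5) were all below their array's median. Smoc1 was at 6748 ± 1337 in the resting and 455.8 ± 151 in the hypertrophic zone. Bmper, a modulator of BMP signalling, was highest in the proliferative zone like Gdf10, at 1118 ± 154, but unlike Gdf10 it was close to this level in the resting zone, at 990.2 ± 161.

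Among 8 signal transducers all were tested and 6 passed the F test. Smad1 and Smad9, which carry the BMP signal, were called higher in the proliferative (2297 ± 589 and 1167 ± 307, SD, n = 5) than in the resting zone (708.1 ± 49.3 and 559.6 ± 120) and lower in the hypertrophic than in the proliferative zone (1133 ± 277 and 346.7 ± 183). Smad5 and Smad4 did not share this fall. Their means were highest in the hypertrophic zone (3066 ± 839 and 3439 ± 209), against 2655 ± 597 and 2803 ± 467 in the proliferative zone. Neither was called between these zones (log2 difference 0.19 and 0.31, adjusted p = 0.309 and 0.0726). Of 11 targets and feedback genes, 10 were tested and 7 passed. In the hypertrophic against the resting zone 6 of the 10 rose (Id1, Id3, Smad6, Smad7, Bambi and Dlx5), where 9.32% of all probe sets were called higher. Smad6 did not pass the F test (adjusted p = 0.1), and the ranges of these zones overlapped for Id1, Id3 and Smad6. From the proliferative to the transition zone 2 rose (Smad7 and Bambi), where 3.11% of all were higher. No target was called between the transition and hypertrophic zones. Between the proliferative and hypertrophic zones 2 rose (Smad7 and Bambi) and 1 fell (Id2), where 9.59% of all were higher and 9.07% lower. Bambi, a decoy receptor induced by BMPs, had means of 307.8 ± 65.4 in the resting, 531.6 ± 103 in the proliferative, 1079 ± 154 in the transition and 1554 ± 363 in the hypertrophic zone. These 4 zones stood in the same order as for Bmp2, while the epiphyseal mean of 521.2 ± 167 (n = 4) was close to the proliferative mean. Id2 went the other way and was highest in epiphyseal cartilage, at 1853 ± 519 (n = 4), against 493.8 ± 178 in the hypertrophic zone.

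**Figure D4:**
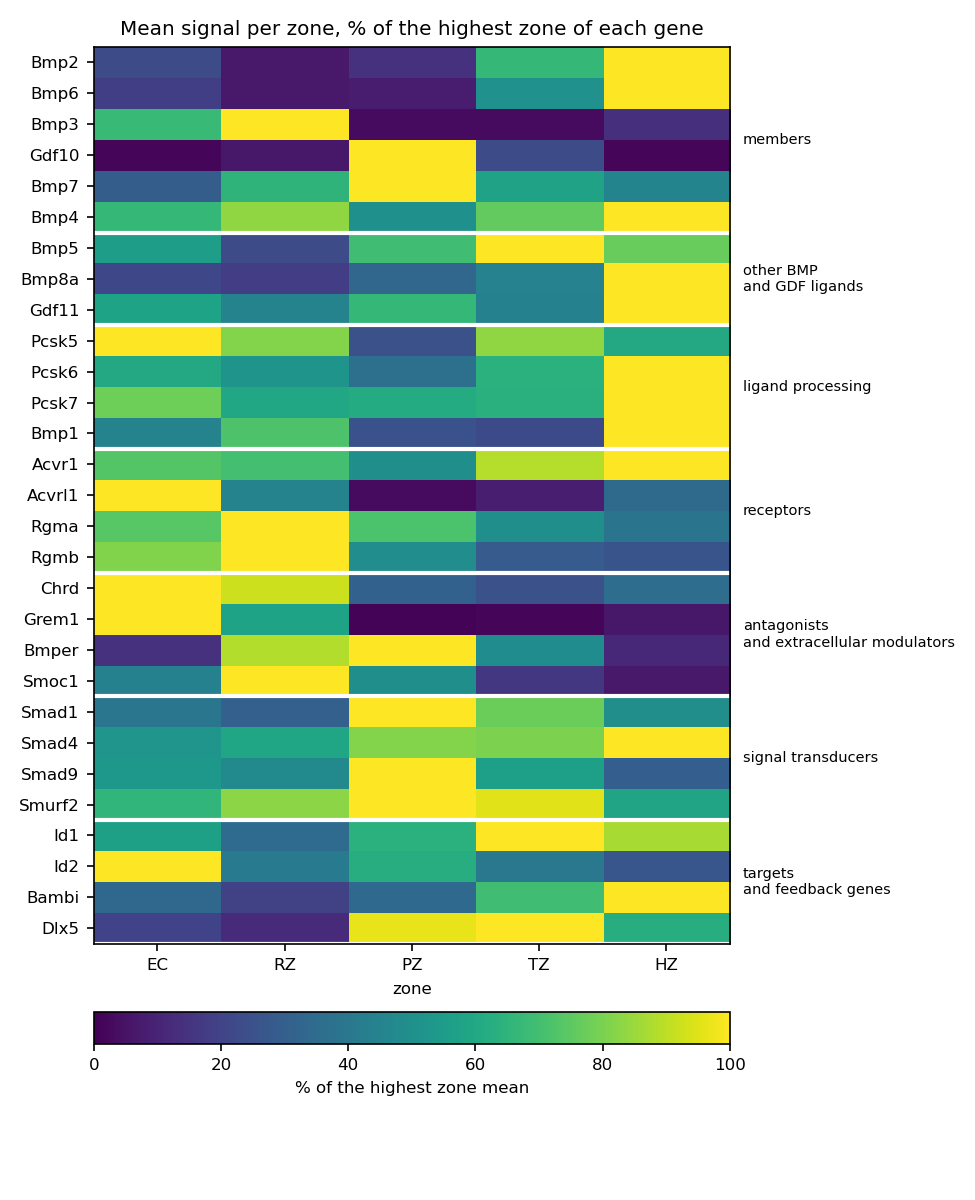
Mean MAS5 signal of the 6 members and of the named pathway genes in each zone (EC, epiphyseal, RZ, resting, PZ, proliferative, TZ, transition, HZ, hypertrophic), as a percentage of the gene's highest zone mean (colour), so that levels are not compared between genes. Bmp2 and Bmp6 reach 66.6% and 50.6% of their hypertrophic mean in the transition zone, and Gdf10 has 6.39% of its proliferative mean in the resting and 23.3% in the transition zone.

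Genes whose pattern was most like that of each member were found by the Pearson correlation of log2(signal + 16) over the 24 arrays, among 10552 genes. The arrays share zones and animals, so the value is a measure of likeness only. Bmp6 was most like Diablo (r = 0.971), Cdkn1a, a cell cycle inhibitor gene (r = 0.97), and Pth1r, which encodes the receptor of parathyroid hormone (r = 0.966). Diablo was also among the 3 most like Bmp2 (r = 0.959), beside B3gnt2 (r = 0.960) and Emp2 (r = 0.958). The mean signal of Diablo was 725.8 in the resting, 1150 in the proliferative, 6742 in the transition and 17446 in the hypertrophic zone.

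Bmp3 was most like Pdgfra, a growth factor receptor gene of mesenchymal cells (r = 0.948), Abi3bp (r = 0.948) and Thbs2, a thrombospondin gene (r = 0.946). Abi3bp is also one of the 4 joint surface and epiphysis markers. Its means were 3966 in epiphyseal, 2969 in resting, 131.7 in proliferative, 94.26 in transition and 284.9 in hypertrophic cartilage. Gdf10 was most like Zfp185 (r = 0.941), Prickle1, a planar cell polarity gene (r = 0.928), and Prelp, a small leucine-rich proteoglycan gene of the matrix (r = 0.927). Prelp had means of 826.5, 3814, 2210 and 285.4 from the resting to the hypertrophic zone. For Bmp7 the closest genes were Lsp1, Fa2h and Pacs2 (r = 0.831, 0.821 and 0.809), and for the dim Bmp4 no gene went above 0.722 (Myrip).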

How the data were processed

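RNA (50 to 100 ng) was amplified in a pair of cycles, biotin-labelled and hybridised to arrays, per the labels' protocols. The authors deposited intensity values, 1 MAS5 signal per probe set, per the submitters' processing notes, which name no MAS5 version. After 57 control probe sets were left out, log2(signal + 16) was fitted with limma 3.58.1 in R 4.3.3 (zone plus animal, mean-variance trend, 15 residual degrees of freedom, Benjamini-Hochberg adjustment over 19213 probe sets above their array's median in at least 4 arrays), with no further normalization, and the fit was tested on simulated data. Names came from the platform annotation. Other genes are shown by their brightest tested probe set. From each pathway list up to 4 genes with the smallest F test p were named, plus members of a called count, and per member the 3 genes most alike in pattern. The members and lists were chosen with earlier results of these data known. The animal numbers pair the arrays by the labels: same-numbered arrays deviated together at a median r of 0.176 (46 pairs, -0.142 to 0.36), against -0.046 for others.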

Additional observations from a re-analysis of the deposited data

Results flagged for a closer look

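Arrays far from the others of their zone were looked for in 40 groups (8 probe sets in 5 zones), where chance flags about 1 in 20, and 6 were found with Dixon's test. In the hypertrophic array of animal 4 Bmp3 was the highest (969.8), Bmp4 (287.0) was the highest and Bmp6 on its brightest probe set (2361.4) was the lowest of 5. That array also had the highest osteoblast, osteoclast and perichondrium marker sums, and their part in these values was not tested. Bmp2 on its dimmer probe set was lowest in the proliferative array of animal 3 (83.3), where its brighter probe set had 1125.1, inside the range of the others. Gdf10 was lowest in the resting array of animal 1 (179.0) and highest in the proliferative array of animal 3 (6738.1).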

How the results depend on the processing

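The 64 member values were recomputed under the other settings, 1075 values in all, and 1021 kept their direction and their side of the threshold. Of the rest 42 lost the call, 5 gained it and 7 changed sign, all 7 for Bmp3 in the transition against the proliferative zone, which was not called: 0.108 with quantile normalization, 0.101 with arrays scaled to one median, 0.0973 with array weights, 0.0787, 0.053 and 0.16 without replicates 1, 3 and 5 (range without 1 animal -0.317 to 0.16), and 0.201 without the transition array of animal 5. The number of member probe sets called ranged from 1 to 5 for the resting zone against epiphyseal cartilage when 1 animal was left out, and was 2 without the epiphyseal arrays of animals 1 and 2. It was 1 for the hypertrophic against the transition zone with arrays scaled to one median, and 4 for the transition zone against epiphyseal cartilage without those epiphyseal arrays. The cause was not tested. The fit with no replicate block gave equal counts of called members in all 8 tests (7 for the F test, 5, 3, 5, 3, 7, 6 and 7 for the comparisons in the order epiphyseal to resting, resting to proliferative, proliferative to transition, transition to hypertrophic, and hypertrophic against proliferative, hypertrophic against resting, transition against epiphyseal). Without animal 2, 137 of all probe sets were called between resting and epiphyseal cartilage in place of 290. The number of arrays limits precision, and Bmp4 and the untested Bmp6 probe sets were dim. The dimmer tested Bmp6 probe set was above the array median in 11 of 24 arrays.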
